A study of Arabidopsis thaliana with 80 samples.

Results

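The comparison described here set the Arabidopsis thaliana accession Vel, a natural line from southern Spain, against the laboratory reference accession Col-0 at the collection that the labels call ex3. Its members are all libraries labelled Vel or Col-0 in that collection, 11 of 80 libraries in the series. Vel had 2 libraries from a morning harvest and 3 from an afternoon harvest that the labels call evening, and Col-0 had 3 of each. The labels give neither line a transgene or treatment, and both grew outdoors in a common garden in southern Spain, in a study of natural accessions over the day and the life cycle. Each library came from polyA RNA of 5 pooled plants, and p-values cover only how such pools vary within a single garden. Roots were discarded, as were stalks at the reproductive stage, and the labels do not pair ex3 with a stage. The collection is labelled as an extraction, so collection and extraction batch cannot be told apart. Morning and evening were weighted equally in the difference Vel minus Col-0. Bon and Moj, the other accessions in ex3 with 6 libraries each, are also set beside Vel, and all 80 libraries of the series entered the fit.

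Accessions of this species carry different versions of many defence, flowering and metabolic genes. Salicylic acid is the hormone of defence against pathogens that feed on living cells, and it switches on the PR genes through the coactivator NPR1. FLC is a repressor that holds back flowering until winter cold has silenced it, and anthocyanins are red pigments that rosettes make in cold and strong light. Reads of every accession were placed on the Col-0 genome, so a gene that Vel lacks or carries in a diverged form cannot be told apart from one that Vel does not express. In pools of whole rosettes, fewer cells of a type and less RNA per cell cannot be told apart either.

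Values are log2 units of a length-normalized estimate in which 0 means not detected. Among all libraries of the series, each of the 11 was closest to another library of its own group (Pearson r across genes 0.981 to 0.989). Genes above 0 numbered 21125 to 21798 per Vel library and 21502 to 22858 per Col-0 library. Summed levels of 8 flower organ markers were 0.475 to 6.57 in Vel and 0.343 to 32.7 in Col-0, with the high sums in Col-0 morning replicates 2 and 3 and evening replicate 1. Results were therefore also computed without those 3 libraries, with Col-0 morning replicate 1 as the only Col-0 morning library left. Small heat shock genes stood high in Vel morning replicate 1. The library labelled Moj morning replicate 1 was closest to Vel morning replicate 1 (r = 0.984), and results with Moj are given with and without it. It also entered the spread behind every test of Vel against Col-0, and without it 10574 genes differed in place of 10287. The 279 genes of the plastid and mitochondrial genomes had values of 0 throughout.

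Vel and Col-0 differed in 49.3% of the genes tested. Of 20880 genes, 4803 (23.0%) were higher in Vel and 5484 (26.3%) were lower at a limma adjusted p under 0.05. Most of these differences were small, and 1258 genes (6.02%) were at least 2-fold higher and 980 genes (4.69%) at least 2-fold lower. The median difference over all genes tested was -0.02 log2 units. In 2314 genes (11.1%) all 5 Vel libraries lay above all 6 Col-0 libraries, and in 1992 genes (9.54%) all lay below. Counts of list members below are to be read against these shares.

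Salicylic acid defence genes stood higher in Vel as a group. Of the 30 members of that list, all tested, 28 rose in Vel, 2 fell (ACD6 and EPS1), and the median difference was 1.98 log2 units. In 21 of the 28, every Vel library lay above every Col-0 library. The direction was also present within each time of day, with 27 higher and 2 lower in the morning and 26 higher and 1 lower in the evening, where of all genes 17.8% were higher and 20.1% lower in the morning and 15.8% higher and 17.0% lower in the evening (38.0% and 32.8% in either direction).

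The secreted PR proteins are the end points of the pathway. PR1, the standard marker of this defence, stood at 10.81 and 10.12 in the morning and 10.60, 10.17 and 7.71 in the evening in Vel, and between 0.83 and 4.82 with a median of 2.44 in Col-0. Every Vel library was above every Col-0 library, and the lowest Vel library was evening replicate 3. The difference was 7.41 log2 units (SE 0.546, limma adjusted p = 1.17e-17), the largest rise among the genes named by rule. PR2, a beta-1,3-glucanase that cuts fungal wall polymers, stood at 8.25 and 7.54 in the morning and 8.91, 8.35 and 7.49 in the evening in Vel, and between 2.999 and 4.34 with a median of 3.54 in Col-0, again with no overlap. It rose by 4.46 log2 units (SE 0.368, limma adjusted p = 9.34e-16), and PR5, a thaumatin-like protein, rose by 3.73 log2 units.

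Upstream regulators also rose. SARD1, a transcription factor that turns on salicylic acid synthesis, stood at 5.42 and 5.51 in the morning and 5.95, 5.75 and 5.34 in the evening in Vel, and between 1.58 and 3.01 with a median of 2.35 in Col-0. The groups were far apart, and the difference was 3.23 log2 units (SE 0.209, limma adjusted p = 5.31e-20). EDS1, a hub that carries signals from intracellular receptors, stood at 5.50 and 5.35 in the morning and 5.58, 5.22 and 4.86 in the evening in Vel, and between 2.87 and 3.42 with a median of 3.11 in Col-0. No libraries overlapped, and EDS1 rose by 2.19 log2 units (SE 0.153, limma adjusted p = 1.35e-18), with its partner PAD4 at 1.52. WRKY70, a transcription factor downstream of NPR1, stood at 6.68 and 6.31 in the morning and 8.26, 7.74 and 7.38 in the evening in Vel, and between 2.42 and 5.36 with a median of 4.24 in Col-0. Both lines were higher in the evening, and Vel was above Col-0 in every library, by 3.15 log2 units (SE 0.247, limma adjusted p = 1.34e-16). NPR1 itself rose by 0.87 log2 units.

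The first 250 bases upstream of the annotated start of SARD1 are shown because SARD1 stands for the regulators of the pathway. They are from RefSeq TAIR10.1, which is Col-0 sequence and not that of Vel, and are printed 5′ to 3′ on the gene's strand (chr1:27749249-27749498, minus). Capitals mark TTGAC, the core of the W box that WRKY factors bind, read on both strands.
SARD1: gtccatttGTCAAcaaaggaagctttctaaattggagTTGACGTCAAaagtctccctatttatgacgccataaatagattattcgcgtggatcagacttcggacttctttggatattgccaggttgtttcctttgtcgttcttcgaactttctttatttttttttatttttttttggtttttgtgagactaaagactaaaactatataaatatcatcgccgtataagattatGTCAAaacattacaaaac
The SARD1 window holds 4 such cores, 242, 213, 208 and 18 bases before the start, of which the middle pair abut without overlap. Such a core was present in 13 of the 30 promoters of the list (43.3%) and in 8987 of 19897 promoters of tested protein-coding genes (45.2%). The as-1 core TGACG, which can overlap the W box core and marks binding of TGA factors, was present in 6 of the 30 (20.0%) and in 19.4% of all.

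Genes of salicylic acid synthesis and turnover also rose. ICS1, the isochorismate synthase at the head of the main route, rose by 1.25 log2 units (SE 0.206, limma adjusted p = 7.93e-07). PBS3, which conjugates its product, rose by 1.58, and EDS5, the transporter that exports the product from plastids, by 1.19, though not in the evening alone. DMR6 and DLO1, hydroxylases that remove salicylic acid, rose by 2.57 and 3.53. ALD1 and FMO1, which make the mobile signal of systemic resistance, rose by 1.49 and 1.79 and were near 0 in Col-0. LURP1, a gene induced late in infection, rose by 4.46 log2 units, with a difference of 5.96 in the morning and 2.96 in the evening.

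The exceptions were ACD6 and EPS1. ACD6, an ankyrin-repeat membrane protein with natural alleles that raise defence, stood at 4.36 and 4.59 in the morning and 4.89, 4.68 and 4.54 in the evening in Vel, and between 6.13 and 6.92 with a median of 6.62 in Col-0. All Vel libraries were below all Col-0 libraries, and ACD6 fell by 2.02 log2 units (SE 0.39, limma adjusted p = 1.78e-05). Without Moj morning replicate 1 in the fit its limma adjusted p was 9.94e-13. EPS1, an acyltransferase of the last step of synthesis, stood at 2.38 and 2.21 in the morning and 2.27, 2.43 and 2.33 in the evening in Vel, and between 2.59 and 2.85 with a median of 2.63 in Col-0. The gap was narrow but without overlap, at -0.35 log2 units (SE 0.095, limma adjusted p = 0.00197), and did not pass in the evening alone.

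**Figure D1:**
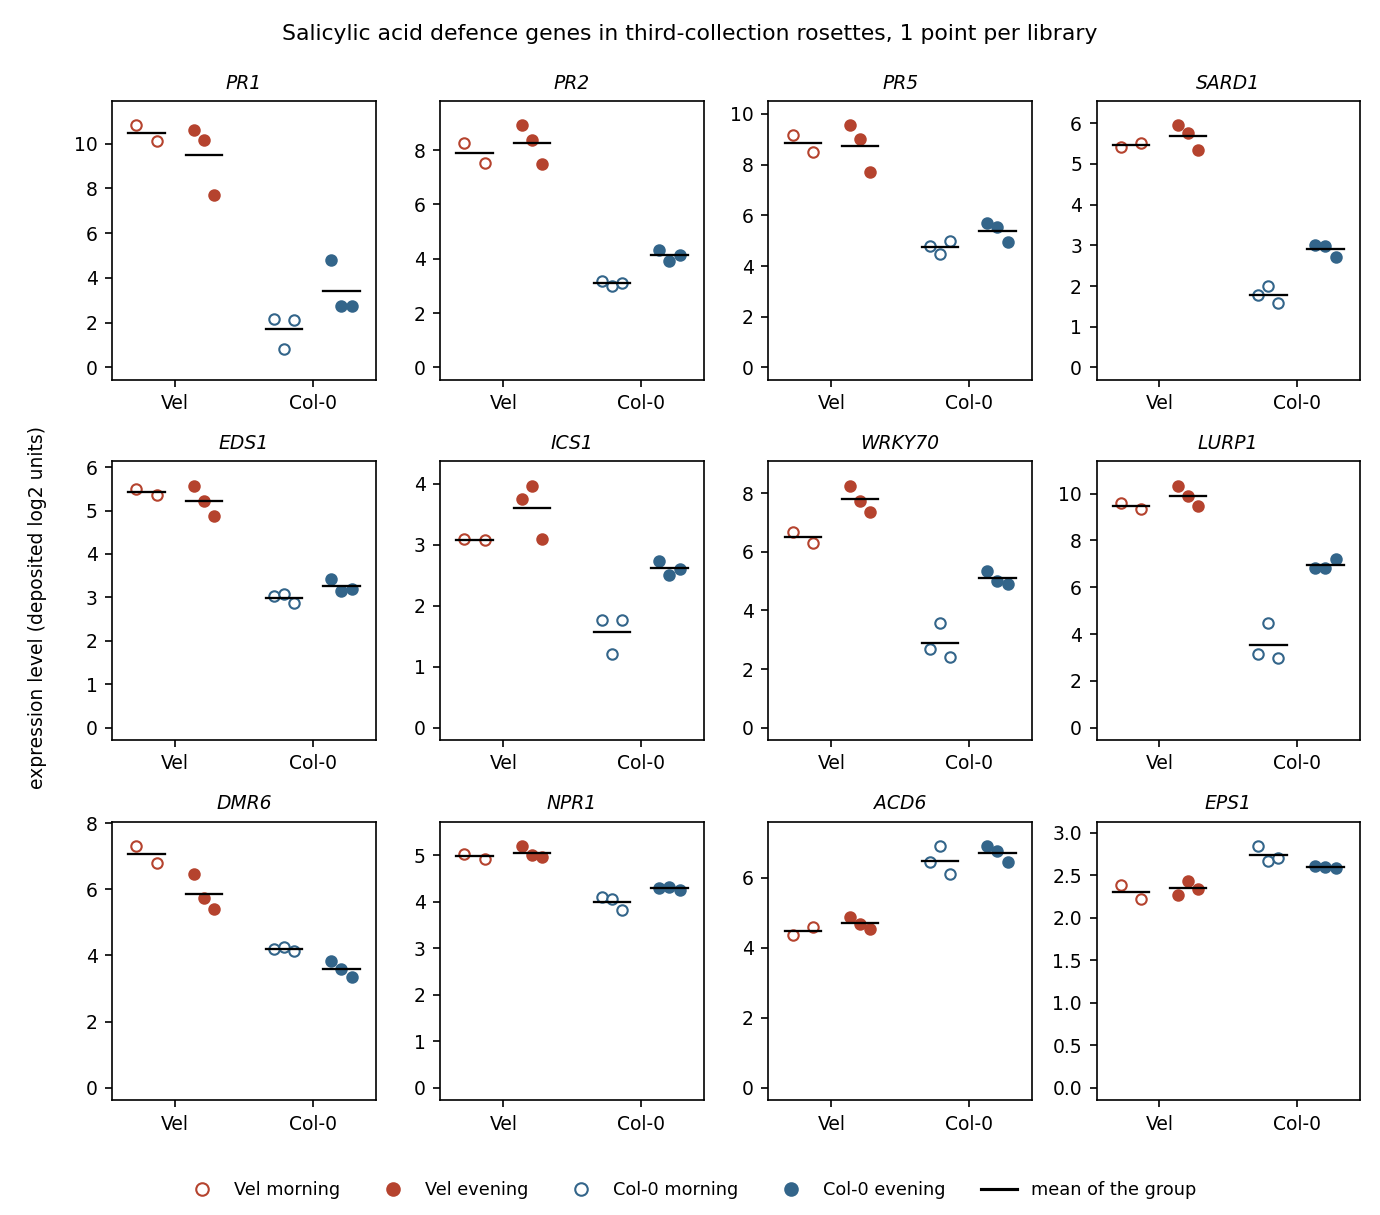
Levels of 12 salicylic acid defence genes in log2 units (vertical axis) in the 5 Vel and 6 Col-0 libraries of the third collection, 1 point per library, with open points for morning, filled points for evening and a bar at the mean of each line at each time of day. Vel is higher for all panels except ACD6 and EPS1, where it is lower.

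Genes linked to leaf senescence, many of which also respond to salicylic acid, moved the same way. Of 15 tested, 9 rose and none fell in limma's test (median 0.61 log2 units), and 4 passed in the evening alone. SAG13, a dehydrogenase-like gene of early senescence, stood at 8.94 and 8.34 in the morning and 8.05, 8.24 and 7.38 in the evening in Vel, and between 2.29 and 4.96 with a median of 3.17 in Col-0. It did not overlap, and rose by 4.88 log2 units (SE 0.323, limma adjusted p = 1.51e-19). The senescence transcription factors WRKY53, WRKY6 and NAP rose by 2.26, 1.68 and 1.55 log2 units. SAG12, a protease of late senescence, had a difference of 2.51 with overlapping libraries.

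Immune receptors went both ways. Of 33 members 32 were tested, with 13 higher, 11 lower and a median of 0.15 log2 units, and 10 and 7 of them had no overlap between the lines. HR4, a homolog of the broad-spectrum mildew resistance protein RPW8, was at 0 in all 5 Vel libraries, and between 4.62 and 5.41 with a median of 5.15 in Col-0. The difference was -5.13 log2 units (SE 0.249, limma adjusted p = 1.22e-25), while its neighbour in the same family HR3 rose by 2.91 (limma adjusted p = 5.98e-20).

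Among intracellular receptors, RPP1, a receptor for downy mildew, fell by 2.13 log2 units (limma adjusted p = 1.62e-19) and RPP5 and RPP8 had differences of -1.28 and -1.25. These belong to clusters of similar genes that vary between accessions, so reads may be split between copies and the values are uncertain. NRG1.2, a helper that relays signals from other receptors, rose by 1.44 log2 units (limma adjusted p = 4.32e-18). At the cell surface, EFR, the receptor for bacterial elongation factor, rose by 1.64, the receptor-like protein RLP23 by 3.13 and its partner SOBIR1 by 2.69. The wall-associated kinases WAK1 and WAK2 rose by 2.23 and 1.73.

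Anthocyanin genes stood lower in Vel. Of 28 tested genes of flavonoid and anthocyanin synthesis 19 fell, 1 rose (TTG1, 0.31) and the median was -1.11 log2 units. Both lines had higher levels in the evening, so evening Vel libraries often reached the level of morning Col-0 libraries, and only 3 of the 19 were free of overlap over all 11 libraries. Within a time of day the count was 19 lower in the morning and 17 in the evening.

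PAP1, the MYB factor that switches on anthocyanin synthesis, stood at 1.22 and 1.15 in the morning and 3.39, 4.85 and 4.20 in the evening in Vel, and between 4.91 and 7.43 with a median of 6.15 in Col-0. It was lower in every Vel library, and fell by 3.47 log2 units (SE 0.336, limma adjusted p = 3.4e-13). Its bHLH partner TT8 stood at 1.54 and 1.504 in the morning and 3.23, 3.23 and 4.34 in the evening in Vel, and between 3.32 and 6.57 with a median of 5.04 in Col-0, a fall of 2.52 log2 units (SE 0.294, limma adjusted p = 1.39e-10). The lines overlapped only between Vel evening and Col-0 morning.

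The enzymes that commit the pathway to anthocyanin also fell. DFR, the first of them, stood at 3.25 and 2.29 in the morning and 7.75, 7.76 and 8.95 in the evening in Vel, and between 5.98 and 10.47 with a median of 8.64 in Col-0. The difference was -3.07 log2 units (SE 0.4, limma adjusted p = 3.28e-09), with -4.03 in the morning and -2.098 in the evening. LDOX, the next enzyme, stood at 2.08 and 1.60 in the morning and 7.25, 7.38 and 8.49 in the evening in Vel, and between 4.78 and 10.28 with a median of 7.93 in Col-0, and fell by 3.04 log2 units (SE 0.35, limma adjusted p = 9.51e-11). The sugar-adding enzyme UGT79B1 fell by 2.898 log2 units, and TT19, which carries the pigment to the vacuole, by 2.38.

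Earlier and side branches differed less. CHS and CHI, the first enzymes of flavonoid synthesis, fell by 1.38 and 1.43 log2 units (CHI limma adjusted p = 1.17e-11). UGT78D2 and UGT78D1, which add sugars to flavonoids, fell by 1.69 and 1.05 log2 units (limma adjusted p = 1.14e-11 and 8.8e-11). FLS1, the flavonol synthase, stood at 5.94 and 6.04 in the morning and 7.25, 7.40 and 8.01 in the evening in Vel, and between 6.18 and 7.74 with a median of 6.75 in Col-0. It did not pass the test (-0.07 log2 units, SE 0.174, limma adjusted p = 0.76). The flavonol regulators MYB11 and MYB111 fell by 1.07 and 0.76 log2 units, which passed the test in the morning but not in the evening alone, and the same held for the rise of TTG1.

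**Figure D2:**
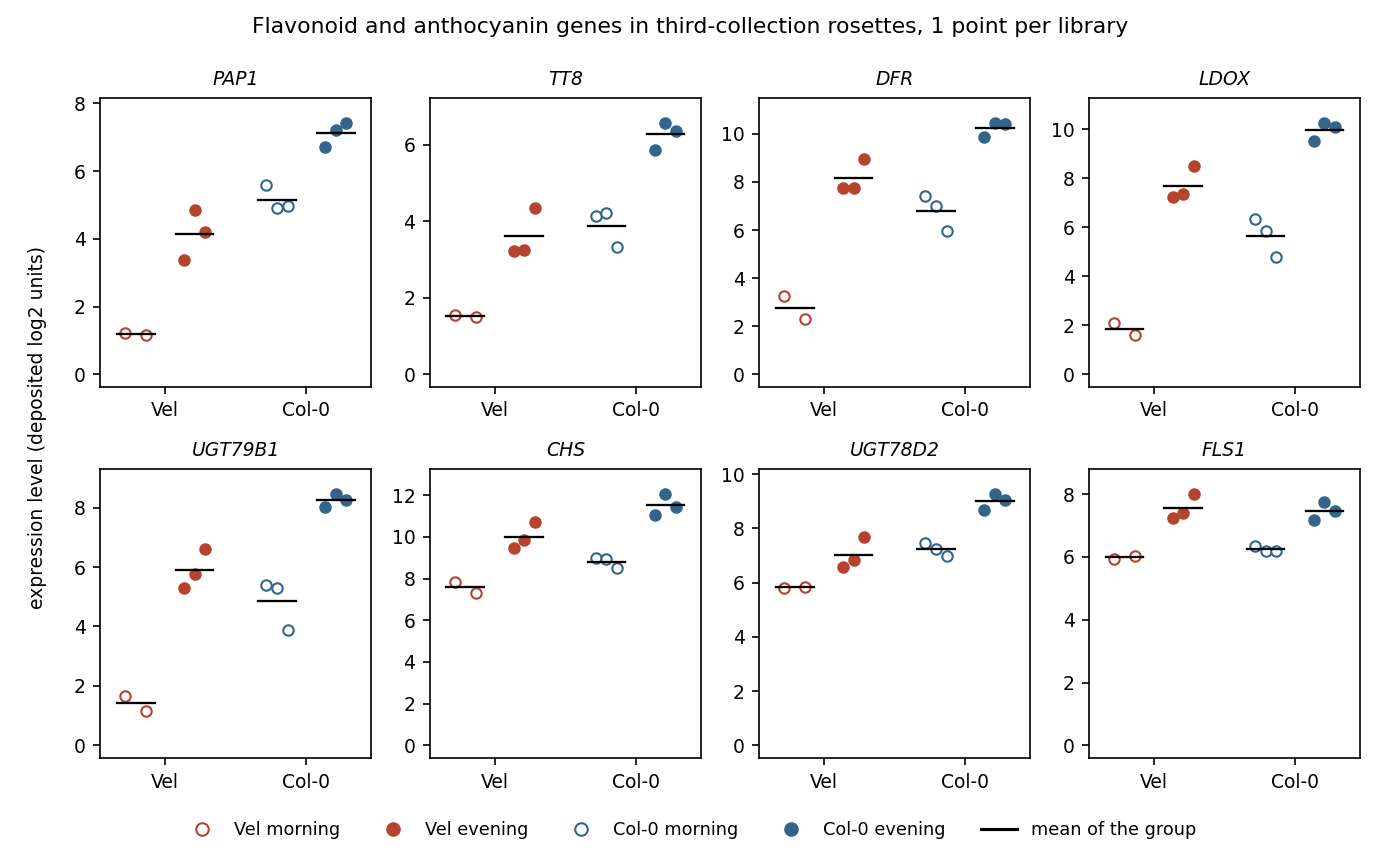
Levels of 8 flavonoid and anthocyanin genes in log2 units (vertical axis) in the 5 Vel and 6 Col-0 libraries of the third collection, 1 point per library, with open points for morning, filled points for evening and a bar at the mean of each line at each time of day. Vel lies below Col-0 at the same time of day in every panel except FLS1, and the lines overlap for FLS1.

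Flowering repressors did not move as a group, but single members of the FLC family differed strongly. Of 15 tested floral repressors, 4 rose (FLC, MAF1, MAF3 and TEM1), 8 fell and the median was -0.29 log2 units. In the evening alone 4 fell, and TEM1 did not pass there or without the 3 Col-0 libraries named above. FLC stood at 2.196 and 2.46 in the morning and 2.12, 1.62 and 2.27 in the evening in Vel, and between 0 and 0.26 with a median of 0 in Col-0. It was detected in every Vel library and at most faintly in Col-0, and rose by 2.097 log2 units (SE 0.121, limma adjusted p = 3.94e-22).

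The relatives of FLC split. MAF1, also called FLM, rose by 0.93 log2 units (limma adjusted p = 2.05e-07) and MAF3 by 1.42 (SE 0.377, limma adjusted p = 0.00137). MAF3 did not pass when only the third collection was fitted (limma adjusted p = 0.0697) or in the morning alone, and without Moj morning replicate 1 in the fit its limma adjusted p was 5.99e-12. MAF4 stood at 0.07 and 0 in the morning and 0.18, 0 and 0 in the evening in Vel, and between 1.28 and 2.33 with a median of 1.62 in Col-0. It was at or near 0 in every Vel library, and fell by 1.67 log2 units (SE 0.163, limma adjusted p = 3.81e-13). MAF2 and MAF5 fell by 1.199 and 1.39 log2 units. MAF2 to MAF5 lie in a row of similar genes, so reads of the copies may be shared. SVP, the partner of FLC, did not pass the test (0.03 log2 units, limma adjusted p = 0.825).

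Of 15 tested genes that control FLC (FRIGIDA, vernalization and autonomous pathway) 1 rose and 6 fell, with a median of -0.13 log2 units. FRI, the activator of FLC that is not functional in Col-0, had a difference of -0.35 log2 units (SE 0.0951, limma adjusted p = 0.00161) that did not pass in the evening alone. VIN3, which cold induces to silence FLC, stood at 2.55 and 3.08 in the morning and 3.43, 3.03 and 3.72 in the evening in Vel, and between 3.38 and 4.59 with a median of 3.79 in Col-0, with some overlap. It fell by 0.79 log2 units (SE 0.17, limma adjusted p = 8.81e-05). VRN2, a Polycomb subunit that keeps FLC silent, fell by 0.88 log2 units (limma adjusted p = 2.75e-13) without overlap, and VRN1 and VEL1 fell by 0.32 and 0.37, though not in the morning alone.

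The targets that FLC represses did not share a direction. FT, the mobile signal of flowering made in leaves, stood at 0.73 and 0.48 in the morning and 0.31, 0.57 and 0.58 in the evening in Vel, and between 0 and 0.25 with a median of 0.14 in Col-0. Levels were low in both lines, and Vel was above Col-0 in every library, by 0.42 log2 units (SE 0.0939, limma adjusted p = 0.000143). TSF, the closest relative of FT, stood at 1.003 and 0.53 in the morning and 0.58, 0.30 and 0.42 in the evening in Vel, and between 1.33 and 2.51 with a median of 1.78 in Col-0. All Vel libraries were lower, by 1.25 log2 units (SE 0.347, limma adjusted p = 0.00213, or 2.57e-05 without Moj morning replicate 1 in the fit). Without the 3 Col-0 libraries with high flower organ markers the TSF difference was -0.89 and did not pass (limma adjusted p = 0.0993). SOC1 stood at 5.94 and 5.93 in the morning and 5.53, 5.35 and 5.60 in the evening in Vel, and between 4.90 and 6.20 with a median of 5.57 in Col-0, and did not pass the test (0.16 log2 units, limma adjusted p = 0.441), with -0.11 in the morning. Over 15 tested floral promoters 3 rose and 4 fell, with a median of 0.00. Without Vel morning replicate 1, 2 of the 15 fell. FD, which acts with FT at the shoot apex, fell by 0.69 log2 units, though not in the evening alone. SPL4, a promoter of the floral transition, fell by 0.799 log2 units (limma adjusted p = 0.00676), but did not pass in the morning alone, with an offset of 0.1 or without Vel morning replicate 1.

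Of 7 tested flower organ markers 6 fell and none rose (median -0.68 log2 units). SEP3, a MADS factor of all inner floral whorls, stood at 0.44 and 0 in the morning and 0, 0.79 and 0.69 in the evening in Vel, and between 0.20 and 2.899 with a median of 1.43 in Col-0. The high Col-0 values came from morning replicates 2 and 3 and evening replicate 1. These 3 libraries were picked by their flower organ marker sums, so a fit without them cannot test the fall of those markers. Without any 1 of these 3 libraries, or without Vel morning replicate 1, 3 of the markers fell. A9, a tapetum marker, was at 0 in all Vel libraries and between 0 and 2.28 in Col-0. All 3 tested shoot meristem markers (CLV1, KNAT1 and STM) fell, with a median of -0.80, and 1 fell without those libraries. Summed meristem markers were 18.3 to 29.1 in Vel libraries and 33.3 to 58.5 in Col-0 libraries. The part of such tissue in other results was not tested. Leaving out the 3 libraries does not test it, because the Col-0 libraries kept had summed meristem markers of 33.3, 47.2 and 40.5.

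**Figure D3:**
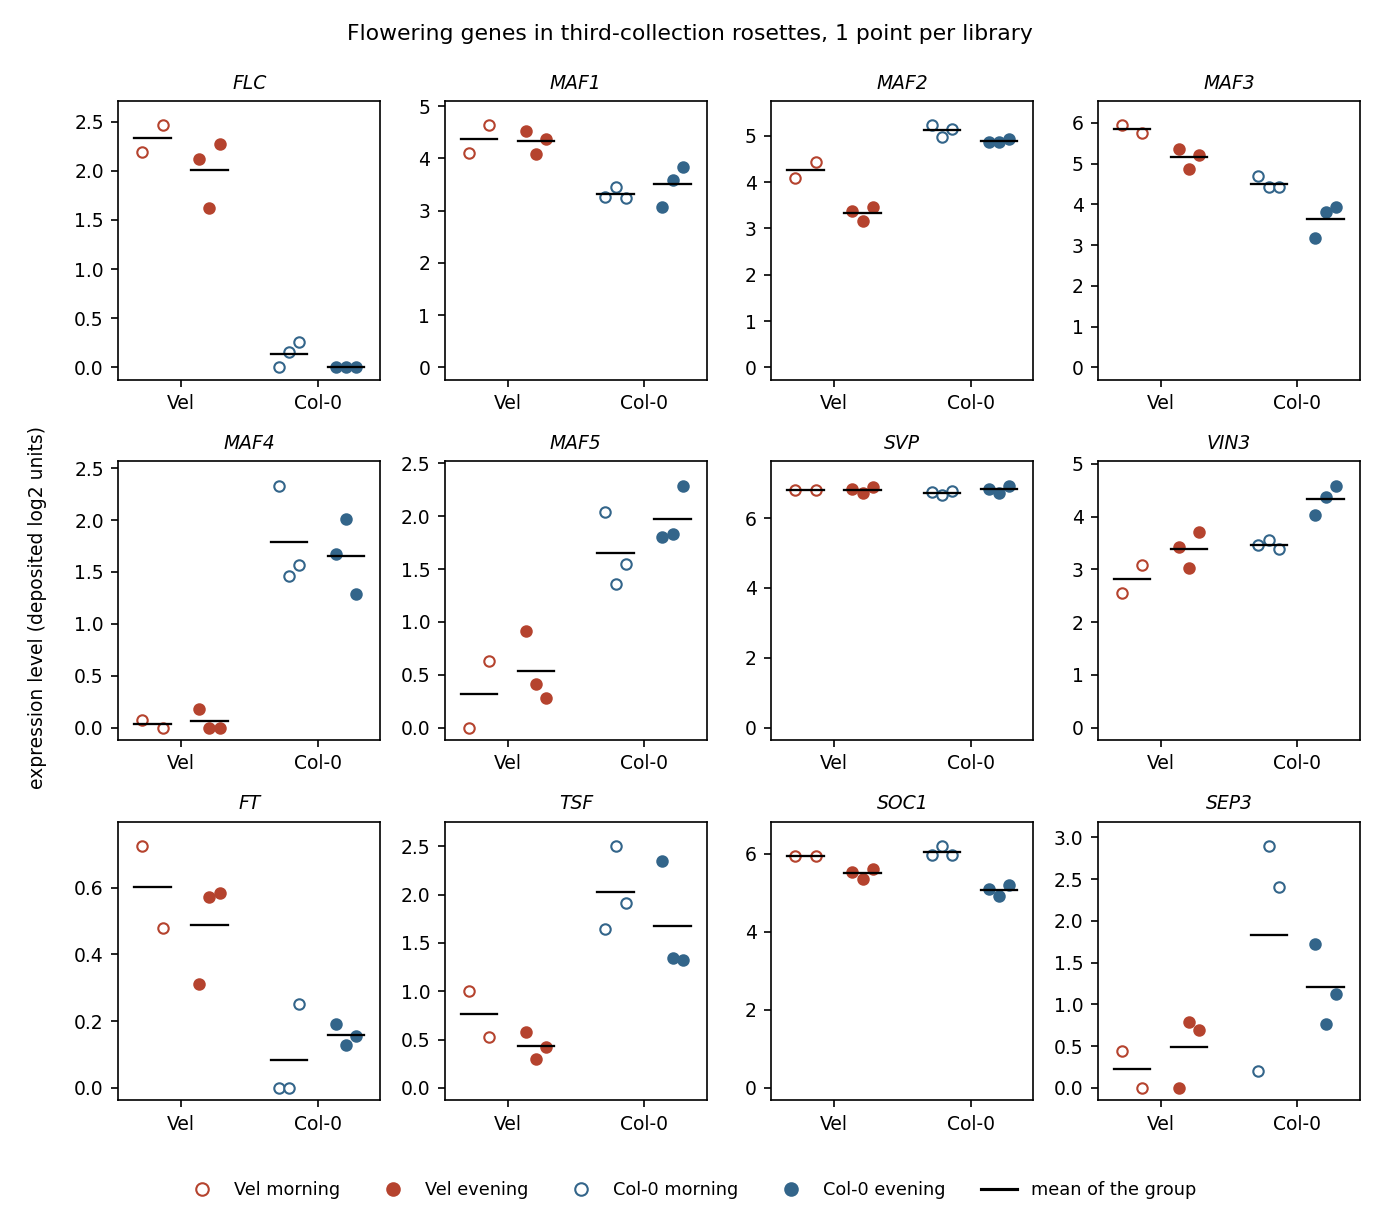
Levels of 12 flowering genes in log2 units (vertical axis) in the 5 Vel and 6 Col-0 libraries of the third collection, 1 point per library, with open points for morning, filled points for evening and a bar at the mean of each line at each time of day. FLC, MAF1, MAF3 and FT lie higher in Vel, MAF2, MAF4, MAF5 and TSF lie lower, and SVP and SOC1 overlap.

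Glucosinolates are the sulfur-containing mustard oil precursors of this plant family, and their genes are known to vary between accessions. ESP, the specifier protein that turns broken-down glucosinolates into nitriles, stood at 8.53 and 8.63 in the morning and 8.41, 8.85 and 8.41 in the evening in Vel, and between 2.44 and 3.38 with a median of 3.12 in Col-0. The lines were far apart in every library, and ESP rose by 5.53 log2 units (SE 0.204, limma adjusted p = 2e-31). The myrosinases TGG1 and TGG2, which start the breakdown, fell by 1.27 and 1.49 log2 units, and the myrosinase-binding protein MBP1 fell by 2.71. Over the 11 tested myrosinases and specifier proteins 2 rose and 3 fell, with a median of 0.20. ESM1, which favours isothiocyanates over nitriles, did not pass the test (0.49 log2 units, limma adjusted p = 0.498). Without Moj morning replicate 1 in the fit its limma adjusted p was 0.0522. It passed when only the 11 libraries were fitted (limma adjusted p = 0.0119).

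In the aliphatic branch 4 of 27 tested genes rose and 11 fell, with a median of -0.14 log2 units. In the morning alone 1 rose and 10 fell (median -0.504), and in the evening alone 6 rose and 4 fell (median 0.10). Without the 3 Col-0 libraries named above 7 fell. AOP2, which makes the alkenyl side chain and is not functional as an enzyme in Col-0, stood at 6.14 and 6.33 in the morning and 7.66, 8.05 and 7.96 in the evening in Vel, and between 3.35 and 4.96 with a median of 4.16 in Col-0. All Vel libraries were higher, by 2.89 log2 units (SE 0.252, limma adjusted p = 7.74e-15). Its neighbour AOP3 was at 0 in all 11 libraries and was not tested, and AOP1 fell by 1.70 log2 units (limma adjusted p = 3.57e-16). GS-OH, which adds a hydroxyl to the alkenyl product, stood at 4.48 and 3.49 in the morning and 2.53, 2.17 and 1.78 in the evening in Vel, and between 6.52 and 7.38 with a median of 6.86 in Col-0. It was lower in all Vel libraries, by 3.84 log2 units (SE 0.34, limma adjusted p = 1.39e-14). MAM1 and BAT5, for chain elongation and transport, fell by 1.68 and 1.40 log2 units, and the regulators MYB28 and MYB29 by 0.59 and 0.97. Neither regulator passed in the evening alone, and MYB28 did not pass without the 3 Col-0 libraries.

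In the indolic branch 7 of 14 genes rose and 3 fell, with a median of 0.54 log2 units. IGMT2, a methyltransferase that decorates the indole ring, rose by 3.36 log2 units (limma adjusted p = 1.45e-15), whereas its relatives IGMT1 and IGMT5 fell by 0.94 and 1.25, the last not in the morning alone. The IGMT genes are close copies and their reads may be shared. The hydroxylases CYP81F2 and CYP81F4 rose by 2.12 and 2.13. Of the regulators, MYB51 and MYB122 rose by 1.51 and 2.08 and MYB34 fell by 1.38.

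Jasmonate, the hormone of defence against chewing insects and necrotrophs, gave no common direction, with 5 of 29 tested genes higher, 7 lower and a median of 0.32 log2 units. PDF1.2, a defensin, stood at 0 and 0 in the morning and 1.02, 0.67 and 0 in the evening in Vel, and between 4.15 and 6.48 with a median of 5.47 in Col-0. All Vel libraries were lower, by 5.12 log2 units (SE 1.05, limma adjusted p = 4.65e-05), but near-identical copies exist and the assignment of reads between them is uncertain. PR4, a chitin-binding protein, rose by 3.36 log2 units, and ERF1, a factor that joins jasmonate and ethylene signals, by 1.52. Of the synthesis genes, AOC3 rose by 1.54 and AOC2 fell by 1.36 (not in the evening alone), and JAR1, which conjugates the hormone, fell by 0.59.

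Of 10 tested heat response genes 8 rose and 1 fell (median 1.22 log2 units), but the count rested on Vel morning replicate 1, without which 3 rose. The small heat shock gene HSP17.4 stood at 5.996 and 0.20 in the morning and 1.85, 0 and 0 in the evening in Vel, and between 0.01 and 0.90 with a median of 0.46 in Col-0, so that 1 Vel library was far above all others. HSP101, a chaperone that dissolves protein aggregates, rose by 1.17 log2 units (limma adjusted p = 1.21e-06) and HSFA7A, a heat stress factor, fell by 1.40 (limma adjusted p = 1.93e-11), both without overlap. MBF1C, a heat-induced coactivator, rose by 1.39 but did not pass in the evening alone, and BIP3, a chaperone of the endoplasmic reticulum, rose by 0.97 but did not pass in the morning alone or with only the 11 libraries fitted.

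Of 18 cold response genes 2 rose and 5 fell (median -0.15), among them KIN1 with a fall of 1.90 log2 units, COR414-TM1 with a fall of 1.24 and ERD10, a dehydrin, with a fall of 1.07, while ZAT12 rose by 1.36. Of 15 drought and abscisic acid genes 3 rose and 5 fell (median -0.06), with RAB18, another dehydrin, falling by 1.36, the factor HB12 by 0.998 and RD22 by 0.83, and the factor HB7 rising by 0.83. Of 22 clock genes 3 rose and 9 fell (median -0.22), with falls of 0.83 for GI, 0.64 for LNK1 and 1.01 for CDF1 and a rise of 0.44 for TOC1. ERD10, RAB18, RD22 and GI did not pass in the evening alone, nor TOC1 in the morning alone, and without Vel morning replicate 1 3 drought genes fell. Of 13 starch breakdown genes 9 fell and none rose in limma's test (median -0.47), including BAM3, a plastid beta-amylase, by 0.94, and MEX1, the maltose exporter, by 0.63. PWD, which phosphorylates starch, fell by 0.63, and the phosphorylase PHS2 by 0.697. In the evening alone 3 of the 13 fell, BAM3 and PHS2 not among them, and 1 rose.

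Of 25 nuclear photosynthesis genes 1 rose and 5 fell (median -0.13), and 2 fell without the 3 Col-0 libraries named above and 3 without Vel morning replicate 2. The antenna protein gene LHCB1.2 rose by 0.76 log2 units, though not in the evening alone. GAPA, a Calvin cycle enzyme subunit, fell by 0.63. The photosystem I subunit PSAD1 fell by 0.44 and the antenna protein gene LHCB2.1 by 0.66, neither of them in the evening alone. LHCB2.1 also did not pass with only the 11 libraries fitted, without the 3 Col-0 libraries, or without either Col-0 evening replicate 1 or Vel morning replicate 2, and its near-identical copies may share its reads. Of 11 secondary wall and xylem genes 2 fell (LAC4 and XCP2) and none rose in limma's test (median -0.23), neither of them without the 3 Col-0 libraries. Of 12 gibberellin genes 3 rose and 3 fell (median -0.07). GA2OX2, which inactivates gibberellin, rose by 1.44 log2 units, and its relative GA2OX1 fell by 1.08. The DELLA repressors RGL1 and RGA fell by 0.88 and 0.47. Of 9 DNA methylation and silencing genes 2 rose and 3 fell (median -0.32), with ROS1, the demethylase, lower by 0.87, and 5 fell without Col-0 morning replicate 1 or evening replicate 3. NRPD1, the largest subunit of a silencing polymerase, fell by 0.44, though not in the morning alone, and NRPE1, that of another, rose by 0.37, though not in the evening alone. CMT2, a methyltransferase, rose by 0.36 but did not pass in the morning alone, with only the 11 libraries fitted, or without Vel morning replicate 2, Col-0 morning replicate 2 or Col-0 evening replicate 3. Of 9 root markers 3 were tested and 1 fell (PYK10, -1.60 log2 units, not in the evening alone). At 0 in all Vel libraries were 5 of the 9, of which 2 (RHD6 and EXPA7) were also at 0 in all Col-0 libraries. Of all 33602 genes, 8076 were at 0 in all 11 libraries. Summed root markers were 2.82 to 3.26 in Vel and 2.49 to 12.9 in Col-0.

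**Figure D4:**
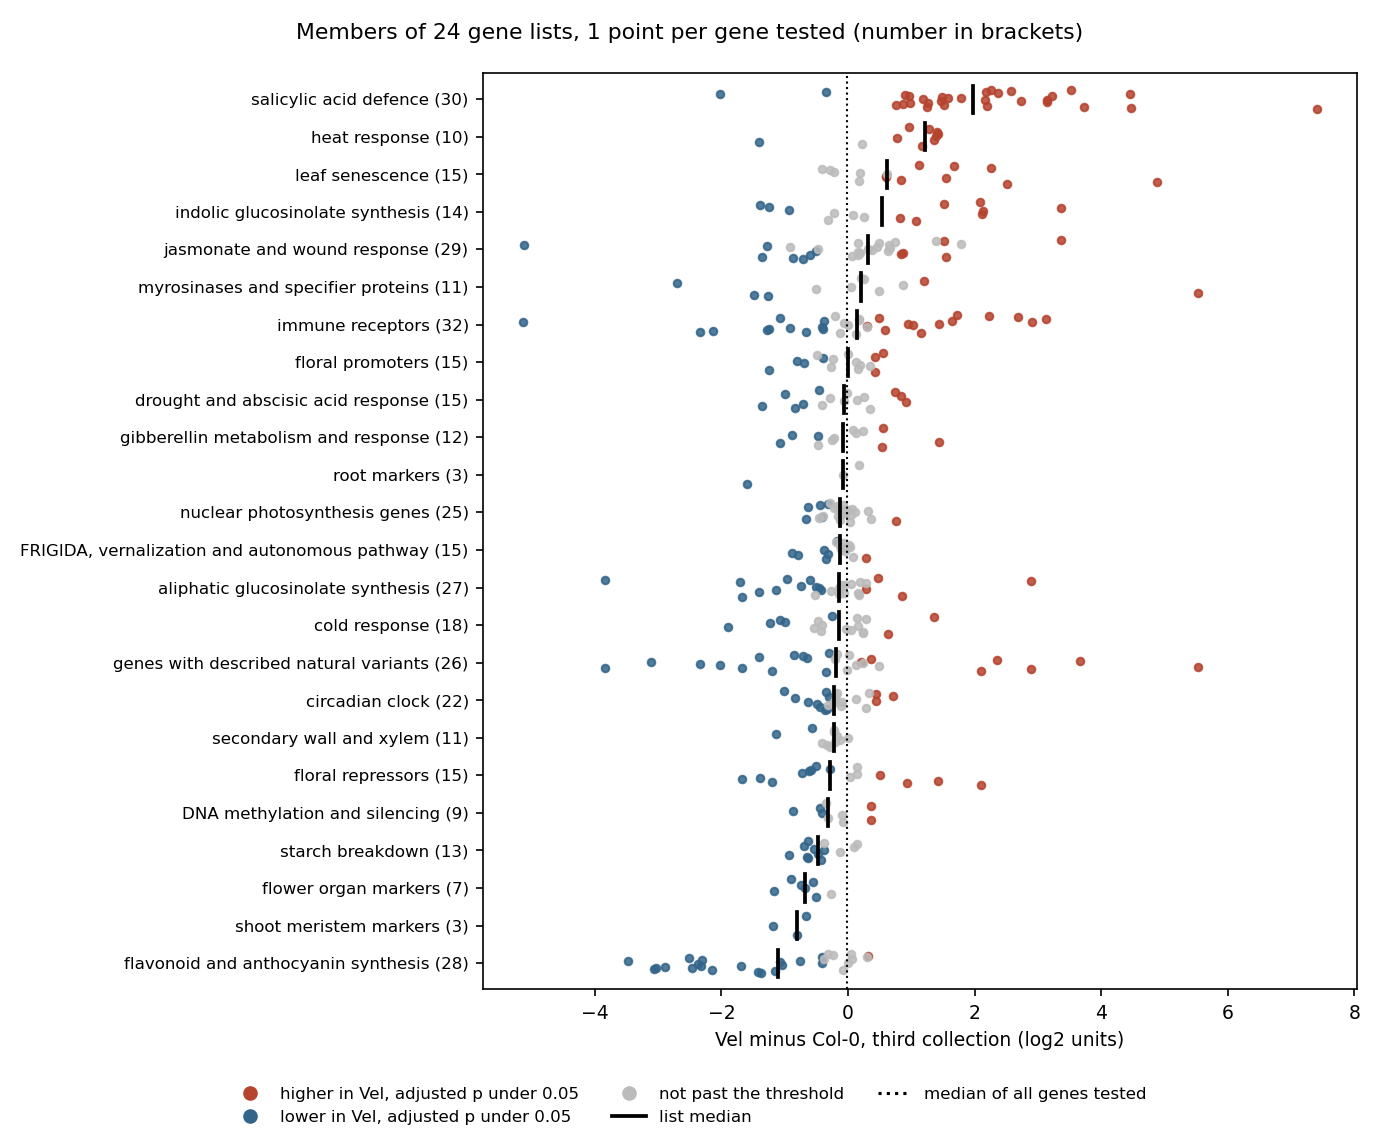
Difference Vel minus Col-0 in the third collection in log2 units (horizontal axis) for each tested member of 24 gene lists, 1 point per gene, with a mark at each list's median. The salicylic acid list has the highest median, 1.98, and the flavonoid and anthocyanin list the lowest, -1.11.

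A further list held genes with natural variants known from other accessions, so it was gathered from genes already known to vary, some of them also in lists above. Of 28 members 26 were tested, with 7 higher, 12 lower and a median of -0.19 log2 units. In 5 of the 26 all Vel libraries lay above all Col-0 libraries and in 8 all lay below, against 11.1% and 9.54% of all genes. FOLT1, a folate transporter whose copies cause incompatibility between some accessions, stood at 6.31 and 6.62 in the morning and 5.91, 6.17 and 6.24 in the evening in Vel, and between 2.55 and 2.69 with a median of 2.63 in Col-0. It rose by 3.66 log2 units (SE 0.126, limma adjusted p = 5.83e-33). PAI1, a tryptophan synthesis gene with silenced and duplicated forms, rose by 2.36 (limma adjusted p = 1.61e-26). QQS, an orphan gene known for natural epialleles, was at 0 in all Vel libraries, and between 2.56 and 3.57 with a median of 3.21 in Col-0, a difference of -3.11 log2 units. PHYC, the red-light receptor, fell by 0.85 (limma adjusted p = 2.96e-14).

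Some genes were on in 1 line and off in the other. Of 33602 genes, 132 had every Vel library at or below 0.1 and every Col-0 library at or above 1, and in 71 genes the reverse held. All of them were among the 20880 genes tested, of which at least 19897 were protein-coding. The 132 comprised 78 protein-coding genes, 31 pseudogenes and 23 noncoding RNAs, and 63 of them met the same cut-offs in all libraries of the other collections. The 71 comprised 36 protein-coding genes, 32 pseudogenes and 3 without a match in the annotation, and 20 of them met the cut-offs there. A single library past a cut-off made a gene fail, so failing does not mean that the difference was absent. AT1G24996 failed with at most 0.265 in Vel and at least 5.71 in Col-0. AT3G29739 failed with at least 3.97 in Vel and at most 0.496 in Col-0. AT2G16367, off in Vel in ex3, reached 5.76 in Vel elsewhere. The highest genes off in Vel were AT1G24996, SADHU1-1 and AT1G25098, with means of 7.48, 7.19 and 6.64 in Col-0, and AT5G28919, AT5G42825 and AT1G34418. Those on in Vel included AT5G41660 and AT5G15360, 5.35 and 5.25 log2 units higher, and the pseudogenes AT3G42930 (mean 6.35 in Vel) and AT2G11983 (mean 6.23). The longest run of neighbours on in Vel was AT3G29734, AT3G29736, AT3G29738 and AT3G29739. Among the genes off in Vel, the F-box genes AT1G24800, AT1G24881, AT1G25055 and AT1G25150 had near-equal Col-0 means of 4.09, 4.03, 3.98 and 3.81. Such genes may share reads and yet be counted separately, and a gene that Vel lacks would also read 0.

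The other accessions of the collection, Bon and Moj, were set against the same Col-0 libraries, so their values are not independent of those of Vel. Of the 132 genes off in Vel, 72 were at or below 0.1 in all Bon libraries and 47 in all Moj libraries, with or without Moj morning replicate 1. Of the 71 on in Vel, 25 were at or above 1 in all Bon libraries and 21 in all Moj libraries. Without that Moj library, 27 of the 132 and 23 of the 71 had the other state in all Bon and Moj libraries.

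Side by side, Vel, Bon and Moj minus Col-0 were 7.41, 6.53 and 7.69 log2 units for PR1 (7.65 in Moj without morning replicate 1), and 2.097, 2.74 and 2.72 for FLC (2.81 without it). ESP gave 5.53, 6.94 and 7.17 (7.39 without it). ACD6 was -2.02 in Vel but 2.06 in Bon and 1.81 in Moj (2.64 without it). TSF was -1.25 in Vel, 3.03 in Bon and 1.86 in Moj (2.47 without it), and MAF3 1.42, -1.75 and -3.18 (-4.04 without it). QQS was -3.11 in Vel, 3.48 in Bon and -2.53 in Moj (-2.24 without it).

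By list, 28, 28 and 29 of the 30 salicylic acid genes were higher than Col-0 in Vel, Bon and Moj, and 19, 20 and 18 of the 28 flavonoid genes were lower. Of all genes tested, 62.3% passed the test in Bon (28.4% higher, 33.9% lower) and 62.6% in Moj (28.7% higher, 33.9% lower). The secondary wall and xylem list had 2 lower members in Vel (median -0.23), 9 higher in Bon (median 2.04) and 9 higher in Moj (median 2.32). Of the 18 cold response genes 5 were lower in Vel and 13 each in Bon and Moj, and of the 25 photosynthesis genes 5 were lower in Vel, 18 in Bon and 20 in Moj. Without Moj morning replicate 1 the Moj counts were 29 salicylic acid genes higher, 17 flavonoid genes lower, 9 wall genes higher, 15 cold genes lower and 20 photosynthesis genes lower. Against each other, Vel was higher than Bon for 1 and lower for 9 of the 30 salicylic acid genes, where 25.4% of all genes were higher and 22.6% lower (48.0% in all). Vel was higher than Moj for 1 and lower for 9 of them, where 21.6% of all genes were higher and 18.3% lower (40.0% in all). Without the Moj library in question 1 was higher and 11 were lower, where 5215 of all genes were higher and 4437 lower. Vel was higher than Bon for 12 of the 18 cold response genes and lower for none by limma's test.

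Few genes passed a test for a change of the Vel minus Col-0 difference between the morning and the evening. Not passing does not show that the differences were alike, because this test is less precise than that of the difference itself. The PR1 difference was 8.76 log2 units in the morning and 6.07 in the evening. Its change did not pass (SE 1.09, against 0.546 for the difference, limma adjusted p = 0.213). Between the harvests 407 of 20880 genes (1.95%) had different differences, 215 (1.03%) with a higher one in the evening and 192 (0.92%) with a lower one. Without Vel morning replicate 1 the count was 137, without Col-0 evening replicate 2 it was 271, with only the 11 libraries fitted it was 265, and without the 3 Col-0 libraries with high flower organ markers it was 226. No member of the salicylic acid list had a difference that was higher in the evening and 2 had a lower one, and of the flavonoid list 1 was higher and 1 lower. The gene AT4G27360 stood at 0.91 and 0.77 in the morning and 0, 0 and 0 in the evening in Vel, and between 0 and 5.03 with a median of 2.60 in Col-0, where all morning libraries stood at 4.79 or above and all evening libraries at 0.41 or below. Its difference was -4.10 log2 units in the morning and -0.14 in the evening (limma adjusted p of the change = 6.33e-12).

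The third collection resembled the second and, less so, the fourth. These collections have their own Vel and Col-0 libraries. Of the 4803 genes higher in Vel in ex3, 1764 (36.7%) were also higher in ex1, 3837 (79.9%) in ex2 and 3249 (67.6%) in ex4, which are 42.3%, 74.1% and 63.0% of the genes higher in those collections. Of the 5484 genes lower in ex3, 43.4% were lower in ex1, 73.9% in ex2 and 65.9% in ex4, which are 58.9%, 75.6% and 64.3% of the genes lower there. The shares of all genes higher and lower in Vel were 20.0% and 19.3% in ex1 (39.3% in all), 24.8% and 25.7% in ex2 (50.5%), and 24.7% and 26.9% in ex4 (51.6%). By a test of the change itself, the Vel minus Col-0 difference in ex3 differed from that in ex1 for 6260 genes (30.0%), 14.6% upward and 15.4% downward. It differed from ex2 for 254 (1.22%), 0.699% upward and 0.517% downward, and from ex4 for 2566 (12.3%), 5.23% upward and 7.05% downward. The count against ex2 was 127 without Vel morning replicate 1, 147 without Vel morning replicate 2, 159 without Col-0 evening replicate 1 and 427 without Col-0 evening replicate 3. Without the 3 Col-0 libraries with high flower organ markers it was 81, and the count against ex4 was 903.

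The salicylic acid list differed between ex1 and the later collections. In ex1, 5 of the 30 were higher in Vel and 5 lower (median 0.00), against 27 higher and 1 lower in ex2 (median 1.42), 28 and 2 in ex3, and 28 and 2 in ex4 (median 1.87). The change from ex1 to ex3 passed the test upward for 27 members and downward for 1, that from ex2 upward for 9, and that from ex4 for 1. The difference in SARD1 was 0.15 log2 units in ex1, 1.83 in ex2, 3.23 in ex3 and 2.86 in ex4. PR1 already differed by 3.34 log2 units in ex1. A larger difference need not mean a higher level in Vel. The mean PR1 level was 4.91, 11.07, 9.98 and 9.59 log2 units in Vel in ex1, ex2, ex3 and ex4. In Col-0 it was 1.58, 7.16, 2.57 and 2.04. From ex2 to ex3 the PR1 difference grew from 3.91 to 7.41 while the mean fell in both lines. ACD6 was lower in Vel at every collection, with differences of -1.80, -2.80, -2.02 and -1.96 log2 units in ex1, ex2, ex3 and ex4.

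Other members followed their own course. The mean FLC level was 5.25, 2.83, 2.17 and 1.66 log2 units in Vel in ex1, ex2, ex3 and ex4, and 1.74, 0.16, 0.07 and 0.03 in Col-0. As Col-0 was near 0 from ex2 on, the sizes of these differences were not compared. The ESP difference was 4.46, 4.87, 5.53 and 6.88 over the same collections. TGG2 was -2.74, -2.34 and -1.49 in ex1, ex2 and ex3 and 1.72 in ex4. Of the 28 flavonoid genes 19, 22, 19 and 20 were lower in Vel in ex1, ex2, ex3 and ex4. Of the 15 senescence genes, 2 were lower and none higher in Vel in ex1 by limma's test, 11 were higher in ex2, 9 were higher in ex3, and 3 were higher and 2 lower in ex4.

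**Figure D5:**
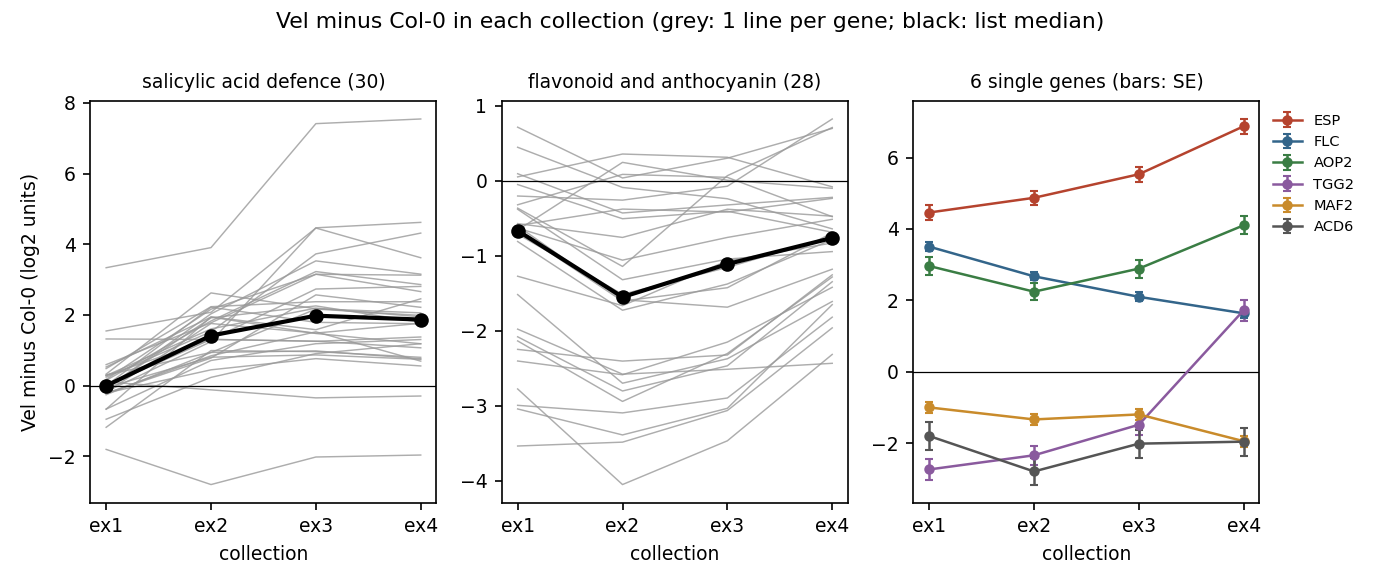
Difference Vel minus Col-0 in log2 units (vertical axes) by collection (ex1 to ex4, horizontal axes) for the members of the salicylic acid and flavonoid lists and for 6 single genes with their standard errors. Salicylic acid genes centre near 0 in ex1 and above 1 from ex2 on, and the flavonoid medians lie below 0 in every collection.

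Beyond the lists, the 10 largest rises and 10 largest falls among protein-coding genes without overlap included several of no known function. AT2G15130, a gene of the plant basic secretory protein family, stood at 7.67 and 6.97 in the morning and 8.39, 7.65 and 6.71 in the evening in Vel, and between 0 and 0.25 with a median of 0.00 in Col-0, a rise of 7.38 log2 units (SE 0.266, limma adjusted p = 7.91e-32). PNP-A, a small secreted peptide that affects water balance, rose by 6.01, and PCR1, a membrane protein of the cadmium resistance family, by 5.65. AT3G48640, AT5G24240, AT2G37435 and the on-in-Vel genes above were the other rises, at 5.90, 5.36 and 5.33 log2 units for the first 3. The falls were led by AT5G21020 and AT1G24996, at -7.53 and -7.48, and by AT1G67860 and AT5G49440, at -6.04 and -5.58. AT5G66052 was at -5.51, and the near-identical lipid A synthesis genes LpxC3 and LpxC2 at -5.38 and -5.29, whose reads may be shared.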

How the data were processed

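Messenger RNA of rosettes was sequenced in 80 libraries, and the deposited values are log2 expression values for 33602 genes in each. FastQC, HISAT2 and StringTie were used with the TAIR10 genome, per the submitters' processing notes, with versions that are not given in the sources used here. A log2 scale, an offset of 1 and quantile normalization (equal upper quantiles within 8.7e-05) were read from the values. The plan assumed values still to be logged, but they already were and were used as deposited. On this scale the fold change of a low gene is understated, and a change of the most abundant genes is seen only as far as their rank. The file holds no counts, so depth is unknown and no interval that needs it is given. The library kit is not stated to mark strand, so overlapping and antisense genes cannot be told apart.

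The 20880 genes that reached 1 in 3 or more libraries entered a limma fit (version 3.58.1, R 4.3.3, data.table version 1.17.8) with 1 mean for each of 28 groups, a variance trend and, as residual degrees of freedom, 52. Two-sided tests used Benjamini-Hochberg adjusted p under 0.05 over all genes tested, for Vel minus Col-0 in ex3, its morning and evening parts, their difference, its differences from ex1, ex2 and ex4, and Bon and Moj in ex3. The fit was tested on simulated data. Summaries and plots were made in Python 3.11.15 with numpy 2.4.6, pandas 2.3.3 and matplotlib 3.10.9.

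The members and the gene lists were chosen with earlier results of these data known. By rule, the text names the 10 largest rises and falls among nuclear protein-coding genes that passed, had no overlap and reached a mean of 5 after back-transformation. It also names up to 4 passing members of each list by smallest adjusted p, the 4 smallest p for each change in the difference, the 6 highest on or off genes each way, and FLC, FRI, FT, SOC1, VIN3, AOP2 and AOP3. For the changes in the difference, only protein-coding genes that reached such a mean in a group compared were ranked. Other members were chosen after their values were seen. The lists are those of the list plot, and list entries for the 2 RPW8 loci are HR3 and HR4, the genes at those loci in Col-0. Gene names and promoters are from RefSeq TAIR10.1, which matched 32835 identifiers. Promoters are the 250 bases before the annotated gene start. The alternatives were other filters, offsets, scaling, fitted libraries, a replicate block and each library left out. Leaving out the 3 Col-0 libraries with high flower organ markers was chosen after seeing the data.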

Additional observations from a re-analysis of the deposited data

Results flagged for a closer look

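The difference between Vel and Col-0 changed with the time of day in 407 genes, by a test of the change itself. The evening difference minus the morning difference was 3.97 log2 units for AT4G27360, a dynein light chain family gene, and 2.16 for AT1G51270. It was 2.30 for AT5G15950 and -4.28 for MIOX1, an inositol oxygenase.

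The difference in ex3 departed from that in ex1 in 6260 genes. The difference in ex3 minus that in ex1 was -2.08 log2 units for AT1G22120, 3.29 for AT1G03106, 4.30 for AT2G44290 and 3.37 for the receptor-like kinase CRK23. Against ex2 it departed in 254 genes, by 2.004 log2 units for the receptor-like protein RLP41, -1.41 for the kinase CRK21, 2.74 for the glucanase BG3 and 2.36 for the chitinase gene AT2G43570. Against ex4 it departed in 2566 genes, by -2.77 log2 units for the antenna protein gene LHCB1.2, -2.78 for AT2G27402, -5.61 for AT5G37970 and -5.42 for AT5G37940. Each of these genes was taken for its small p among protein-coding genes that reached a mean of 5 after back-transformation in a group compared. LHCB1.2 was higher in Vel in ex3, by 0.76 log2 units. It has near-identical copies, so its reads may be shared.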

How the results depend on the processing

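Depth is unknown, and Vel had 2 morning libraries. The count of genes that differed in ex3 (10287) was within 1.5 times of the main count under every alternative run except the evening alone, 6841. Leaving out 1 of the 11 libraries gave 8834 to 10310 for it, 137 to 433 for the change with time of day (407), 5076 to 6523 for the change from ex1 (6260), 127 to 427 for that from ex2 (254) and 1811 to 3181 for that from ex4 (2566). Without Moj morning replicate 1 in the fit these counts were 10574, 572, 6751, 335 and 3044. The change with time of day was 265 with only the 11 libraries fitted. Without the 3 Col-0 libraries with high flower organ markers it was 226, that from ex2 was 81 and that from ex4 was 903. For ex4, 1093 genes were higher and 1473 lower, against 789 and 1519 with an offset of 0.1 and 1393 and 1372 with an offset of 5. With a replicate block the counts were 9904, 365, 5827, 213 and 1982 in the order above. Vel and Col-0 libraries of the same replicate number had deviations with correlations between -0.167 and 0.055 and matched best in 2 of 5 cases. With 2 or 3 libraries per group this check cannot decide whether they share a batch. The main fit did not pair them. Over 179 named genes and 26 settings, 4542 of 4648 values had the same direction and side of the threshold, 97 no longer passed, 1 newly passed and 8 turned in sign. Those were AG at 0.057 and SEP1 at 0.21 without the 3 Col-0 libraries, SOC1 at -0.11 and AT5G15950 at -0.53 in the morning alone, SVP at -0.021 and FLS1 at 0.10 in the evening alone, FLS1 with 1 library left out (-0.19 to 0.0023) and HSP17.4 likewise (-0.0465 without Vel morning replicate 1, to 2.85). Their cause was not tested, and AG, SEP1 and HSP17.4 had passed before. AG and SEP1 are among the markers by which the 3 Col-0 libraries were picked. Of 24 lists, 8 kept a count within 1.5 times under all settings.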
